A study of Mus musculus with 2 samples.

Results

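Fibrillar collagens and small leucine-rich proteoglycans are the main matrix products of connective tissue, and 10 genes of these families and of a partner protein, periostin, were followed in lenses of newborn mice. The genes are Col1a1, Col1a2, Col3a1, Dcn, Lum, Ogn, Bgn, Fmod, Kera and Postn, and each probe whose RefSeq transcript belonged to one of them was taken. These are 10 of the 20655 genes that could be named on the array. The study compared lens RNA labelled wild-type with lens RNA labelled Foxp1 KO, a lens-specific knockout of this forkhead transcription factor, both from litter mates at postnatal day 0 on a mixed C57BL/6 background. The treatment text of both samples reads Foxp1-flox/flox; Pax6-L-Cre, a floxed allele with a Cre transgene named for Pax6, so the groups rest on the genotype and source labels. Each genotype was read on 1 single-colour array of the same slide, so genotype and place on the slide cannot be told apart, and the labels do not say whether lenses of several animals were pooled. No test across samples is possible with 1 array each. Every difference below therefore has no replicate check, and is a difference between these arrays.

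Fibrillar collagens are triple-helical proteins that assemble outside the cell into the fibrils of dermis, tendon, sclera and cornea. Small leucine-rich proteoglycans bind those fibrils and set their diameter and spacing. Decorin and biglycan carry chondroitin or dermatan sulphate chains, whereas lumican, keratocan and fibromodulin can carry keratan sulphate. In the eye these genes are best known from fibroblasts, from the keratocytes of the corneal stroma and from the mesenchyme around the lens. The lens itself holds epithelium and fibres inside a capsule rich in type IV collagen and laminin.

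The arrays were first checked against their labels. Foxp1 read lower on the knockout array with each of its 3 probes, from 3460 to 970 for the brightest, with differences of -1.82, -1.84 and -1.33. Which exons were deleted is not stated in the labels, so the position of these probes relative to the deletion is unknown here. Of 18 lens genes 17 were measured on both arrays. None of them (0 of 17) was 2-fold apart, and their median difference was -0.01. Values are processed signals, the spot brightness after background subtraction. Differences are log2 of knockout over control after each array was scaled to its 75th percentile, which was 283 and 279.9. Scaling by array medians instead raised every gene by about 1.08. Under that scaling 61.2% of measured genes were at least 2-fold higher, so directions below are relative to the 75th percentile. Added E1A spike-in RNAs at 1539 or more in the control read between -0.06 and 0.003 under the 75th percentile. Those at 283 and 579 read -0.13 and -0.23. Dim added RNA read lower on the knockout array. An E1A spike-in RNA with a mean signal of 86.7 in the control read 37.8 in the knockout, a difference of -1.16 (SD 0.35 over 35 spots). The next dimmer one, at 55.2, was above background at 35 control spots and at 0 of its 35 knockout spots. It read 6.87 in the knockout, a difference of -3.10.

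Of the 10 genes, 6 were measured on both arrays, 2 (Dcn and Lum) were above background on the knockout array only, and 2 (Kera and Postn) were above background on neither. Col3a1 and Col1a1 passed 2-fold in favour of the knockout and 0 of the 6 were at least 2-fold lower. Over all 14254 genes measured on both arrays, 1.02% were at least 2-fold higher and 5.86% at least 2-fold lower. The median of the 6 differences was 0.11, against 0.01 over all measured genes. Each gene was read by 1 probe, and apart from Kera each probe was 1 spot. The error given beside a difference is the spot SD at that brightness, taken from probes printed at least 5 times. It covers spot noise only, and in RNA of whole lenses fewer cells of a type and less RNA per cell cannot be told apart.

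**Figure D1:**
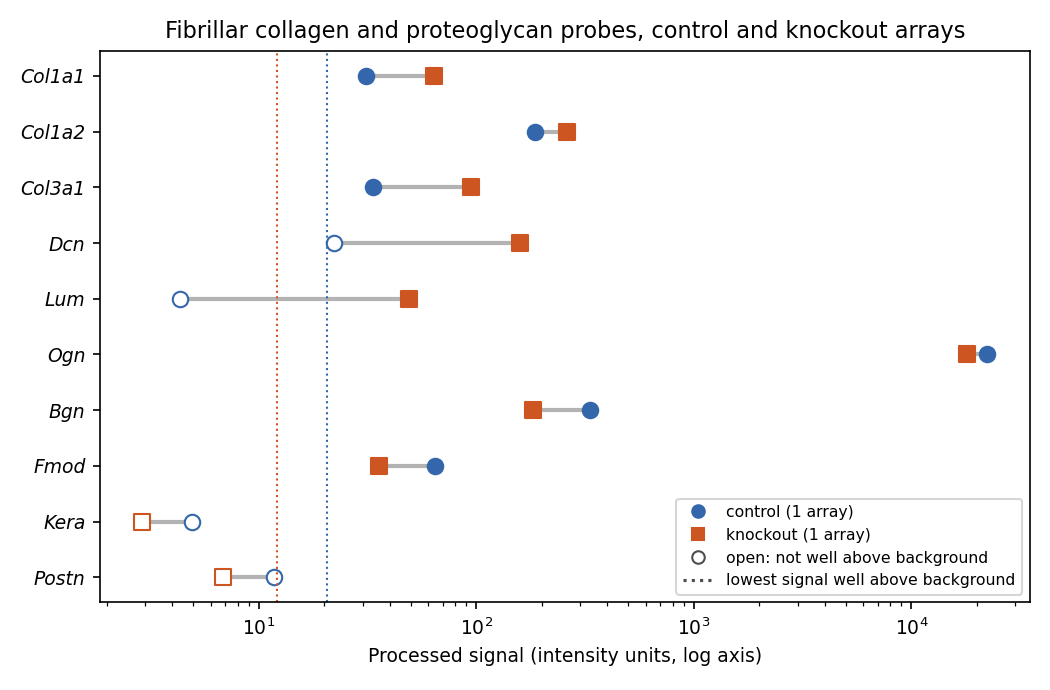
Processed signal (log axis) of the probe of each of the 10 genes on the control array (circles) and the knockout array (squares), with open symbols for probes not well above background and dotted lines at the lowest signal well above background on each array (20.6 and 12.1). Col1a1, Col1a2, Col3a1, Dcn and Lum lie to the right on the knockout array, Ogn, Bgn and Fmod to the left, and Kera and Postn are open on both.

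The 3 fibrillar collagen chains read higher in the knockout in each setting that measured them. Col3a1, the chain of type III collagen found in pliable connective tissue, had a control signal of 33.5 and a knockout signal of 94.2. This is 2.84-fold higher, a difference of 1.51 ± 0.27 (spot SD). Col1a1, the major chain of type I collagen, read 31.2 and 63.8, which is 2.06-fold higher at 1.05 ± 0.29. The Col1a1 difference thus lies within 1 spot SD of the 2-fold limit. Col1a2, the second chain of type I collagen, read 186 and 261. Its difference of 0.50 ± 0.14 was 1.42-fold and stayed below the 2-fold limit. The software's own error estimates were 5.36 and 6.88 for the Col1a1 readings and 6.16 and 9.97 for those of Col3a1, so neither pair of readings overlapped within these errors.

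Col1a1 and Col3a1 differed in sign from most genes as dim as they are. When the measured genes were cut into 5 classes by signal, both lay in the dimmest, whose median difference was -0.50. In that class 1.09% of 2851 genes were at least 2-fold higher and 23.9% at least 2-fold lower. There, 8 genes including Col3a1 were as high as Col3a1 or higher, and 29 including Col1a1 were as high as Col1a1. Both chains read closer to equal when median spot brightness replaced the processed signal. With local background subtracted from it Col3a1 read 1.13 and Col1a1 0.73, the latter below 2-fold. With normexp correction and an offset of 50 on the same brightness Col3a1 read 0.70 and Col1a1 0.46, both below 2-fold. Quantile normalization gave 2.37 and 2.02, and loess gave 1.97 and 1.66. Col1a2 lay between 0.38 and 0.55 in every setting other than array medians, where it was 1.58.

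**Figure D2:**
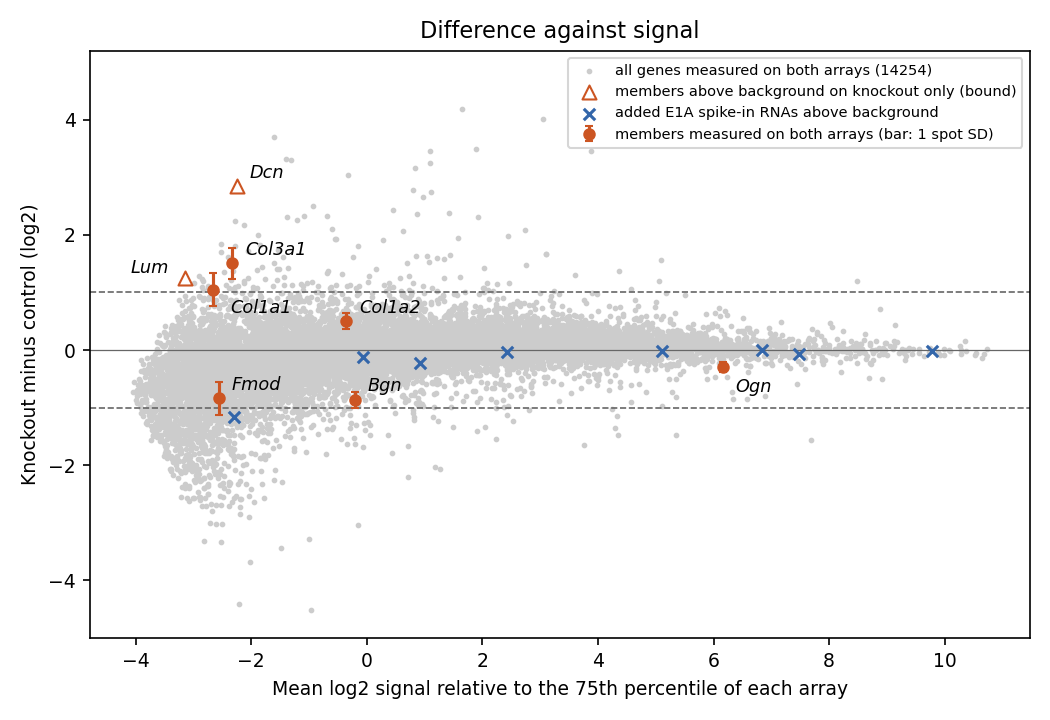
Knockout minus control (log2) against mean log2 signal relative to the 75th percentile, for 14254 genes (grey). Filled circles are the 6 members measured on both arrays (bars 1 spot SD). Open triangles are the bounds of Dcn and Lum, and crosses the E1A spike-in RNAs above background. Dashed lines mark 2-fold. Col3a1, Col1a1, Dcn and Lum lie above the 2-fold line at the dim end, where most genes and the dimmest spike-in lie below 0.

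Decorin and lumican were the members above background in the knockout alone. Dcn, a chondroitin or dermatan sulphate proteoglycan that binds type I collagen fibrils, read 22.2 in the control, not well above background, and 158 in the knockout. The processed signals give a bound of 7.18-fold higher. It is the plain scaled ratio of these readings, since the control reading lay above the dimmest signal that passed the background flag. The software's own errors were 7.24 for the control reading and 16.4 for the knockout, so the bound is not a strict lower limit. The raw median brightness of the Dcn spots was 73 in the control, on a local background of 22. In the knockout it was 138.5, on one of 20. These give a much smaller bound of 2.42-fold, so the size of the Dcn difference depends on which signal is used. Lum, a keratan sulphate proteoglycan needed for corneal transparency, read 4.34 and 48.9. It was at least 2.39-fold higher, a bound set against 20.6, the dimmest control signal that passed the background flag, and at least 1.96-fold higher by median brightness over local background. Among all named genes 2.29% were above background on the knockout array only. Of those 472 genes 6.36% had a bound of at least 2-fold, and Dcn had the next to largest bound, with 2 genes as high or higher, itself included. Lum was 1 of 17 at its bound or above. Under normexp correction the bounds were 1.76-fold for Dcn and 1.44-fold for Lum. Under the other scalings of the processed signal they lay between 6.58-fold and 15.2-fold for Dcn and between 2.19-fold and 7.92-fold for Lum.

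The other measured members, all proteoglycans, read lower in the knockout, except with array medians, where all 3 lay above 0. Relative to the median of all genes they read the same in both settings, at -0.87 for Bgn, -0.30 for Ogn and -0.85 for Fmod. Bgn, biglycan, the closest relative of decorin, read 332 and 181, which is 1.82-fold lower. Its difference of -0.86 ± 0.14 was among the lowest of its brightness class, where 47 of 2850 genes were as low or lower. Dcn and Bgn therefore read in opposite directions, except with array medians, where Bgn was 0.22. Fmod, fibromodulin, a keratan sulphate proteoglycan of tendon and sclera, read 64.2 and 35.6. Its difference of -0.84 ± 0.29 was common for so dim a probe, since 887 of 2851 genes in the dimmest class were as low or lower. Fmod read -0.02 under quantile normalization and 0.24 with array medians. Ogn, osteoglycin or mimecan, was the one bright member, at 22368 and 18095. It was 1.22-fold lower, -0.29 ± 0.08, a difference larger than its spot noise but far from 2-fold, and it was 0.79 with array medians. In the brightest class 88 of 2851 genes were as low as Ogn or lower.

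Keratocan and periostin gave no signal above background. Kera, the keratan sulphate proteoglycan that marks corneal keratocytes, was printed at 10 spots, all of them not well above background on both arrays. Its spots read between 4.19 and 5.94 on the control array and between 2.45 and 3.52 on the knockout array. Postn, periostin, a matricellular protein of fibroblasts that binds collagen, read 11.7 and 6.87. Its single probe is annotated to 1 of the 6 RefSeq transcripts of the gene, so other isoforms may not be read by it. Of all named genes 19.8% were above background on neither array. Readings of both genes that are not well above background give no fold.

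**Figure D3:**
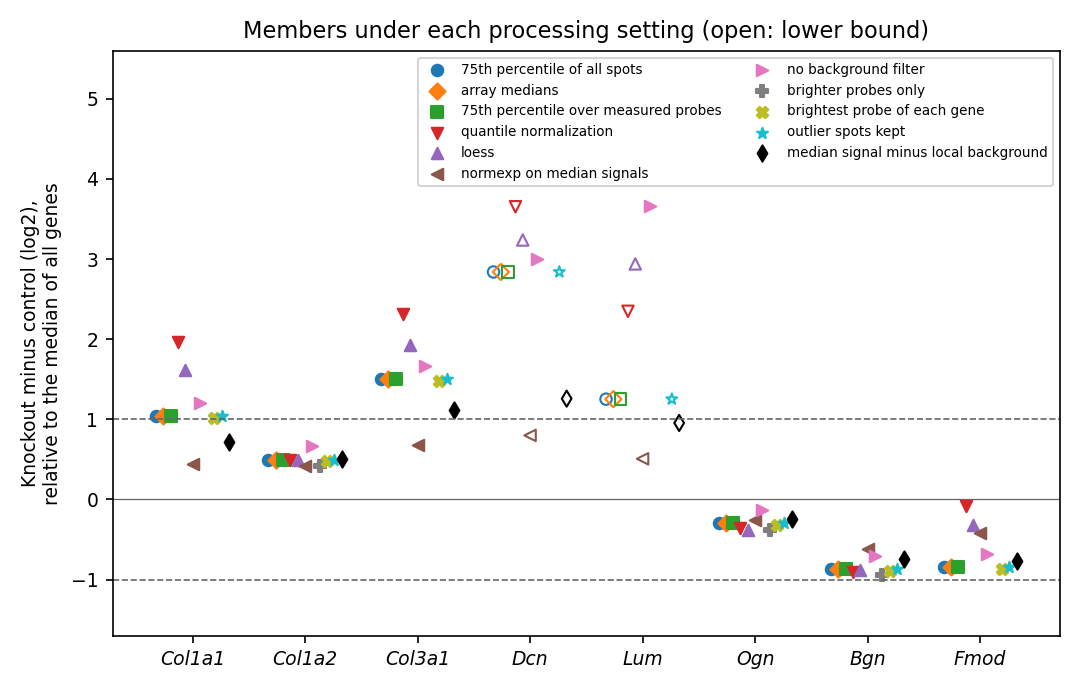
Knockout minus control (log2) of each measured member relative to the median of all genes. Values are under the 75th percentile of all spots and 10 other processing settings (one symbol each). Open symbols are bounds, and dashed lines mark 2-fold. Col1a2, Ogn and Bgn moved little, whereas Col1a1, Col3a1, Dcn and Lum spread upward under quantile normalization and loess and were lowest, below the 2-fold line, under normexp correction.

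Several of these genes are neighbours on the chromosome, with 0 protein-coding genes between each gene named in the orders given here and the next in the GRCm38.p6 annotation. On chromosome 10 the order is Dcn, Lum, Kera, Epyc. Dcn and Lum read above background on the knockout array only, while Kera and Epyc, the epiphycan gene of growth cartilage, did so on neither. On chromosome 13 the order is Ecm2, Aspn, Omd, Ogn, and only Ogn was above background, on both arrays. On chromosome 1 the order is Optc, Prelp, Fmod, and Prelp was not analysed here. Optc, opticin, a proteoglycan of the vitreous made by the ciliary epithelium, read 2661 and 1570, a difference of -0.75. Fmod of the same cluster read -0.84, but from a dim probe for which so low a value was common, so the 2 values are not alike in weight. Col3a1 lies beside Col5a2, a type V collagen chain that is built into type I fibrils, which read 44.9 and 58.4, a difference of 0.39.

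**Figure D4:**
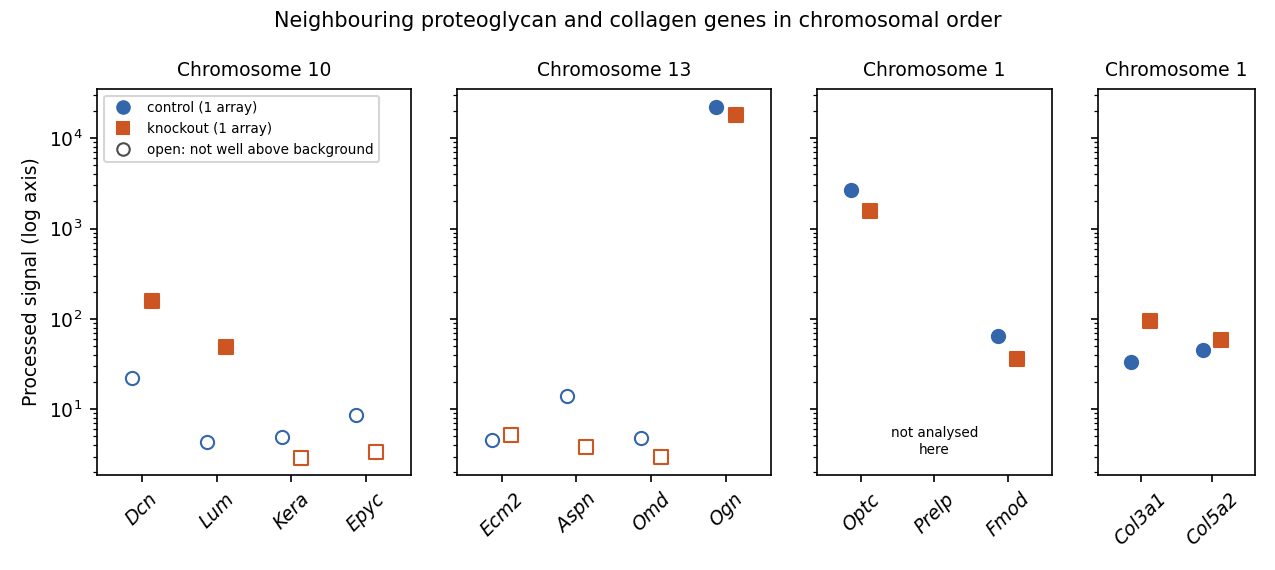
Processed signal (log axis) of neighbouring genes in chromosomal order on the control (circles) and knockout (squares) arrays, with open symbols for probes not well above background. In the chromosome 10 group only Dcn and Lum, on the knockout array, are filled, and in the chromosome 13 group only Ogn is filled.

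Promoter windows were available for 7 of the 10 genes in RefSeq (GRCm38.p6). The 250 bases before the start are printed for the collagens Col1a2 and Col3a1, which read higher, and for the bright gene Ogn, which read lower. Capitals mark matches on either strand to the TATA box (TATAAA), the CCAAT box (its own letters), the GC box (GGGCGG) and the core that forkhead factors bind (TAAACA). A match describes letters, not a bound site.
Col1a2: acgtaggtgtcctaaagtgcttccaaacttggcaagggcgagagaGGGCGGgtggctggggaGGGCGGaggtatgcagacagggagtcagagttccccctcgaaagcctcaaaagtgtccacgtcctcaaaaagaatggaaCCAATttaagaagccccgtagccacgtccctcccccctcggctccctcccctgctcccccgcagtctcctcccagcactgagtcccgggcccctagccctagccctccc
Col3a1: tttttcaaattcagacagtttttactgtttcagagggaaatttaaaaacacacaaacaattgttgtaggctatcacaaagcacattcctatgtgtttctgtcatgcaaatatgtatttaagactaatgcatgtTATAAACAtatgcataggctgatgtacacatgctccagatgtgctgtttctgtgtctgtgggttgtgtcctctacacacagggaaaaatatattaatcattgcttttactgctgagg
Ogn: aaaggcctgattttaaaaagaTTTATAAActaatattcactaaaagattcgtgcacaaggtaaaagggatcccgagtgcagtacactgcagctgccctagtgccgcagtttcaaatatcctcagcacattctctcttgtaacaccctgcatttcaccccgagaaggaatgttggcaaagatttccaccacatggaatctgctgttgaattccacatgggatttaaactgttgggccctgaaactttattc
The windows lie at chr6:4505368-4505617, chr1:45311288-45311537 and chr13:49607765-49608014, all on the plus strand. The Col1a2 window held 62% G and C with 2 GC boxes and 1 CCAAT box, whose first base lies 109 bases before the start. The Col3a1 window held 35.2% G and C, with TATA box letters and forkhead core letters that overlap, at 117 and 115 bases before the start. The Ogn window held 42% G and C and 2 overlapping matches to the TATA box letters, at 227 and 229 bases. Over 32851 windows of the same length 12.4% held the TATA box letters, 33.8% the CCAAT box, 32.7% the GC box and 12% the forkhead core. Of the 8 windows of the 7 genes 3, 2, 2 and 1 held them.

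Over 7 lists of related matrix genes 5 of 76 measured genes were at least 2-fold lower (6.58%) and 1 was higher (1.32%), shares near the 5.86% and 1.02% of all measured genes. Of the 5 lower genes 4 lay in the dimmest class. A further 8 were above background in the control only, 7.69% of the genes on the array against 8.76% of all named genes. In the knockout only there were 3 of 104, where the share of all named genes was 2.29%. A bound of at least 2-fold lower was common among genes above background in the control only, held by 92.8% of 1809. The spike-in RNA at 55.2 was in that state too. For genes about as dim, here and below, such bounds cannot be taken as lower limits of a gene difference. Of 8 other fibrillar collagen genes 5 were measured, with 0 higher by 2-fold, 1 lower and a median of -0.15. Col11a2, a type XI collagen chain, read 89.5 and 28.2 and was 3.14-fold lower. Col5a1 lay at -0.15 and Col11a1 at -0.65. Of 12 fibril-associated and other interstitial collagen genes 8 were measured, 0 were higher, 1 was lower and the median was -0.36. Col14a1, which coats fibrils, was 3.93-fold lower, with 1 of its 2 probes above background. Col9a1 read -0.91 over 2 probes that disagreed in size (-0.44 and -1.38), and Col6a1 read 0.53. Col9a3, a type IX collagen chain, was above background in the control only, at least 4.87-fold lower. Of 12 other small leucine-rich proteoglycan genes 6 were measured, 0 were higher and 2 were lower, Podnl1 at -1.46 and Podn at -1.31, and the median was -0.60. Podn read 463 and 185, while Nyx, nyctalopin of the retina, read 0.82. Tsku was above background in the control only, at least 2.52-fold lower.

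Among genes that make and join collagen 21 of the 22 measured lay within 2-fold. Of 27 synthesis and cross-linking genes 22 were measured, 0 were higher and 1 was lower, with a median of -0.20. The lower gene was Adamts2, a procollagen protease, with 2 probes at -0.55 and -2.85. P3h3 and P3h2, prolyl hydroxylases of collagen, read -0.66 and 0.57. Of 21 glycosaminoglycan chain genes 16 were measured, 0 were higher or lower, and the median was 0.02, with the sulphotransferase Chst1 at 0.89. Csgalnact1 was above background in the knockout only, at least 2.08-fold higher, from 17.6 to 42.4. A bound of at least 2-fold higher was held by 6.36% of the 472 genes in that state. B3gnt7 and Xylt1, glycosyltransferases, were above background in the control only, at least 4.25-fold and 2.67-fold lower. Their control signals, 52.1 and 42, were dimmer than the spike-in RNA at 55.2. Of 14 matricellular and partner genes 10 were measured and 1 was higher, Ccn2, a matricellular growth factor, at 3.19-fold. Their median was -0.22, and Fn1, fibronectin, and Mfap4 read 0.78 and -0.91. Tnc, tenascin C, and Ccn5 were above background in the control only, with bounds of 3.46-fold and 3.12-fold lower. Their control signals, 42.3 and 40.9, were also dimmer than the spike-in RNA at 55.2. The other Tnc probe was above background on neither array. Of 13 receptor genes 9 were measured and 0 of these were beyond 2-fold, with a median of -0.11 and the collagen receptor Ddr2 at -0.88. Mrc2, an endocytic collagen receptor, was above background in the control only, at least 6.12-fold lower. The medians of these lists lay above 0 with array medians, where each list shifts with all genes.

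Markers of the cells that could bring collagen and proteoglycan RNA into a dissected lens did not read in a common direction, and their part in the collagen and proteoglycan differences was not tested. Of 13 transcription factors of the mesenchyme around the eye 6 were measured, 0 passing 2-fold higher and 2 lower, and the median was -0.69, which became 0.15 under quantile normalization and 0.39 with array medians. Tcf21 and Prrx1, the 2 lower genes, read -1.79 and -1.14, Prrx2 -0.83 and Six2 0.76. Both lower genes lay in the dimmest class, where 23.9% of all genes were at least 2-fold lower and the median was -0.50. Twist2, a factor of dermal mesenchyme, was at least 2.35-fold higher, from 19.1, not well above background, to 47.9. Its relative Twist1 was above background in the control only, at 25.1, with a bound of 2.05-fold lower. That signal was dimmer than the spike-in RNA at 55.2, so the bound is not a lower limit of a gene difference. Foxc2, Tbx18 and Osr2 were among those above background on neither array. The summed signal of the measured factors was 1045 in the control and 708 in the knockout.

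Of 14 fibroblast and keratocyte markers outside the 10 genes 11 were measured, with 0 higher, 2 lower and a median of -0.02. Clec3b and Pi16, markers of fibroblasts in loose connective tissue, were 3.02-fold and 2.05-fold lower, and Pi16 lay in the dimmest class. Thy1, a surface protein of fibroblasts and of retinal ganglion cells, read 0.94. Cd34 read -0.92 over 2 probes that disagreed in size, -0.24 for the bright one and -1.61 for the dim one. Dpt, dermatopontin, was above background in the control only, at 25.3, with a bound of 2.02-fold lower. It too was dimmer than the spike-in RNA at 55.2, so its bound is not a lower limit. Fap and Lox were above background on neither array. Pdgfra and Pdgfrb, growth factor receptors of mesenchyme, read -0.02 and 0.02. They are named here after their values were seen, and Pdgfra is known from lens epithelium as well. The summed signal of the measured markers was 55898 and 56888, most of it from Vim, vimentin, which lens cells also make.

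Other cell types that lie near the lens gave values that differed between lists. The list of pericyte and smooth muscle genes had 6 of 10 measured, 1 higher, 0 lower and a median of -0.08. Its sum went from 2837 to 5769 through Acta2, smooth muscle actin, at 4.27-fold higher. Tagln read 376 and 525, a difference of 0.50. Cspg4, at 77.7 in the control, read -0.97. Des and Myh11, at 61.8 and 24.3, were above background in the control only, at least 5.02-fold and 1.99-fold lower. Spike-in RNAs at 86.7 and 55.2 in the control also read lower on the knockout array. Retinal neuron genes read higher as a list, with 10 of 10 above 0, 1 at least 2-fold higher (Pou4f2, 2.53-fold), a median of 0.61 and sums of 6695 and 9637. Over all measured genes the median was 0.01, and 1.02% were at least 2-fold higher. The median of the retinal list lay between 0.48 and 1.69 over the settings. All 10 genes of vascular endothelium were measured, with 0 higher, 1 lower, a median of -0.13 and sums of 10228 and 9693. Emcn, in the dimmest class, read -1.12 and Tek 0.86. Macrophage genes had 7 of 10 measured, 0 higher, 1 lower and a median of -0.14, and summed to 935 and 836. Lyz2 was above background in the control only, at least 3.50-fold lower, and Mrc1 in the knockout only, at least 1.57-fold higher. Melanocyte and pigment epithelium genes had 6 of 8 measured, 0 beyond 2-fold and a median of -0.39. All 6 lay below 0, from -0.84 to -0.07, where the median of all measured genes was 0.01. The median of the pigment list was 0.69 with array medians. Corneal and surface epithelium genes had 5 of 8 measured, 0 of these beyond 2-fold and a median of -0.17. Epcam and Krt8, general epithelial markers, were above background in the control only, at least 5.80-fold and 3.68-fold lower, and Krt12, which defines corneal epithelium, was above background on neither array.

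Skeletal muscle genes had 5 of 8 measured, 0 higher, 1 lower and a median of -0.67. Cartilage genes, 2 of which are also on the collagen lists, had 4 of 8 measured, 0 of these beyond 2-fold and a median of -0.68, with Comp above background in the control only, at least 3.20-fold lower. Schwann cell and neural crest glia genes had 4 of 6 measured, 0 beyond 2-fold and a median of 0.01. Erythroid genes had 5 of 6 measured, all between the limits and all 5 below 0. Their median was -0.30, against 0.01 over all measured genes. The medians of these 4 lists changed sign under another scaling.

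**Figure D5:**
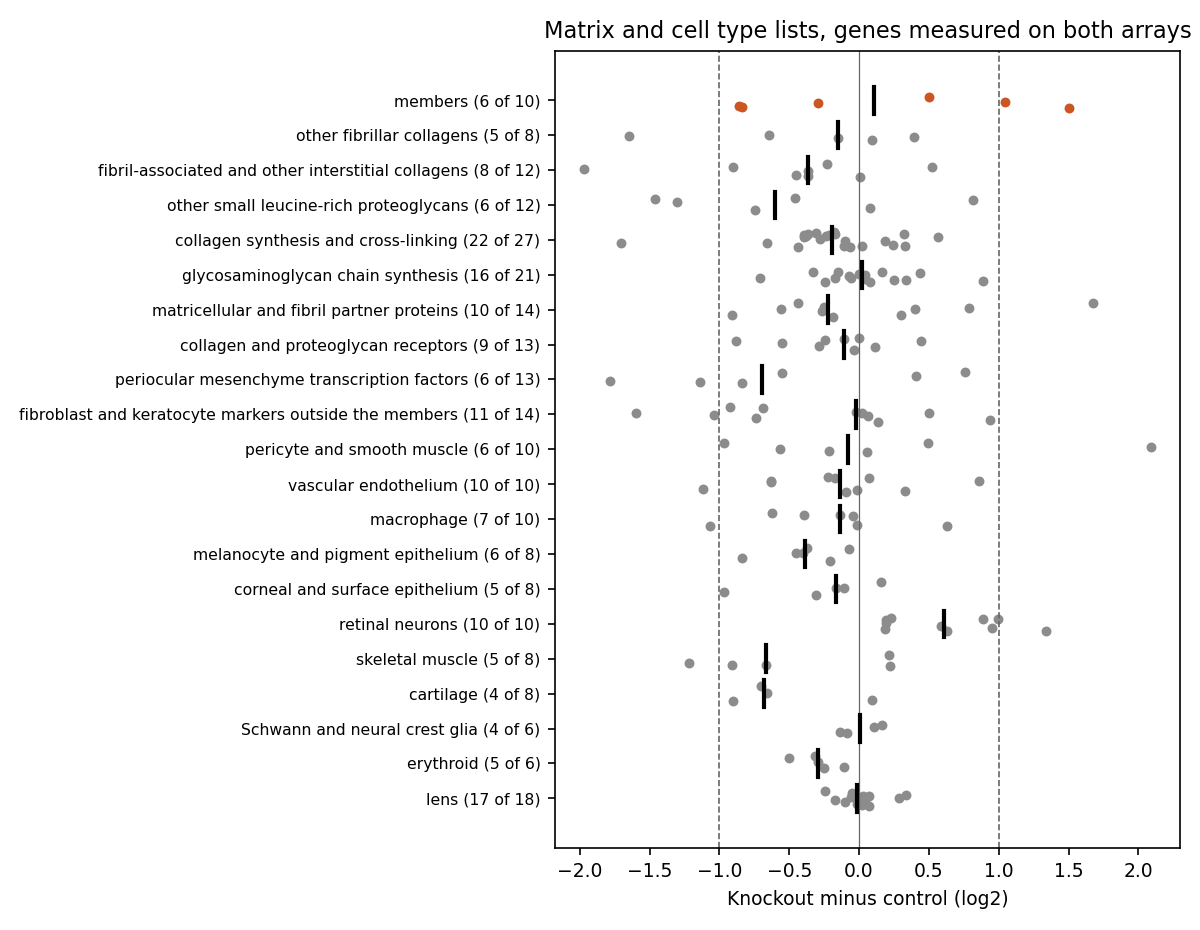
Knockout minus control (log2) of each gene measured on both arrays (points) and the list median (bars), for the 10 genes at the top and the matrix and cell type lists below, with the number measured of the number listed and dashed lines at 2-fold. Col1a1 and Col3a1 stand at the right of the top line, and the fibroblast and mesenchyme points lie on both sides of 0. The retinal neuron points all lie above 0, and the pigment epithelium and erythroid points all lie below 0.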

How the data were processed

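Single-colour Agilent arrays were read from 1 control and 1 knockout lens RNA. The authors deposited intensity values for each spot (processed signal, its error, median signal and local background), which per the file headers came from Agilent Feature Extraction 10.7.3.1 at 3 microns with a layout annotated to mm9, and no scaling between arrays is recorded. The background flags are other deposited values of 0 or 1. Log2 processed signals were scaled to the 75th percentile of all gene spots, outlier spots included and control spots left out. Outlier spots were left out after the scaling. A probe counted as measured if over 50% of its spots passed the background flag on each array, and a gene was the mean of its measured probes. Transcript accessions were matched to RefSeq names (GRCm38.p6), which named 27225 of 55655 probes. No p-value was computed, and 2-fold was the fixed size. Other list genes were named by size of difference, up to 4 a list plus 2 bounds, and Csgalnact1 was named beyond this rule. Besides the 10 genes, 7 matrix lists and 13 cell type lists were used. The genes and lists were chosen with earlier results of these data known. Normexp used limma 3.58.1 on median spot signals, in place of the mean signals planned; subtraction of local background from the median signals, floored at 1 unit, was a further setting; and loess used statsmodels 0.14.6 with a span of 0.3. The steps were tested on simulated data. The number of arrays limits the precision.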

Additional observations from a re-analysis of the deposited data

How the results depend on the processing

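Of the 10 genes, 2 were at least 2-fold higher. The count was 1 when the 75th percentile was computed from measured probes only (Col1a1 read 0.92), 3 with array medians, 1 with local background subtracted from median signals, 4 without a background filter, 0 with normexp correction and 0 over the brighter probes, where Col1a1 and Col3a1 were left out. Quantile normalization, loess, the brightest probe of each gene and keeping outlier spots each gave 2. The count lower was 0 in all 11 settings. The median difference, 0.11, was 1.18 with array medians and -0.29 over the brighter probes. Over all genes 146 were higher and 835 lower, against 8724 and 101 with array medians, 776 and 232 with quantile normalization, 406 and 289 with loess, 72 and 99 with normexp, 293 and 4466 without a filter, and 80 and 46 over the brighter probes. The normexp offset shrinks dim differences by construction, and both settings on median signals were chosen after seeing the data. No paired analysis was possible because each genotype had 1 array, and no replicate could be left out. Signal over background limits Col1a1, Col3a1, Fmod, Dcn and Lum.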
